A study of Mus musculus with 16 samples.

Results

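Macrophages lacking miR-155 (KO) were compared with wild type macrophages (WT) after 6 h of lipopolysaccharide (LPS), on 4 of the 16 single-colour arrays of the series, chosen by the genotype and time in their titles. The series follows both genotypes at 0, 6, 12 and 24 h of LPS, with 2 arrays in each of 8 groups. Bone marrow cells of male mice, labelled C57BL/6Jax for both genotypes, were grown for 9 days in medium with 10 ng/mL of the macrophage growth factor M-CSF, and the adherent cells were given 100 ng/mL LPS. The 2 KO arrays and the 2 WT arrays at 6 h therefore share strain label, sex, culture and stimulus, and differ in the genotype label. The labels do not say how the knockout was made, how old the mice were, or whether replicates 1 and 2 came from different animals. The p-values and errors below measure the spread between arrays within the 8 groups of the series, which may be technical. They are not the spread of the 4 arrays at 6 h alone.

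miR-155 is a microRNA made from a non-coding host transcript that LPS switches on in macrophages. Through its seed, the bases near its 5′ end, it pairs with matching sites in messenger RNAs, usually in their 3′ untranslated regions, and lowers their level or translation. In macrophages it is known for targets that restrain inflammatory signalling, among them the phosphatase SHIP1 (gene Inpp5d) and Socs1, and for targets that are transcription factors, among them Cebpb, Bach1 and Spi1 (PU.1).

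The mature sequences of miR-155 are shown because the seed defines which transcripts can carry a site. The 2 mature strands in RefSeq, with bases 2 to 8 in capitals, lie on the plus strand of chromosome 16 in GRCm38.p6, at chr16:84714143-84714165 and chr16:84714182-84714202.
mmu-miR-155-5p: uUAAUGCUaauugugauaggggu
mmu-miR-155-3p: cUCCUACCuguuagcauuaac
The array had 0 probes named for Mir155 and 0 for its host gene Mir155hg, and the genotype therefore rests on the labels alone.

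A match to the 5p seed reads AGCATTA on the strand of the messenger RNA (bases 2 to 8), and AGCATTAA when an A follows. Probes of this array are 60 bases long and lie mostly near the 3′ ends of transcripts, so some of them hold such a site. Of the 17659 genes tested, 68 (0.385%) had the match within the probe that stood for them, searched on the transcript strand only. These are 30-base stretches of 5 such probes, with the match in capitals, shown because they name the transcripts in which a site and a level were read on the same bases.
Cebpb: tttccgtttcgAGCATTAAagtgaagacat
Wdr41: gcttggtAGCATTAAaatcatagggcgatg
Tnip3: ctagattctgtAGCATTAAaagtgcagctg
Map3k14: ggactcattgtAGCATTAAgttcactgtga
Foxn2: agatacatgttAGCATTAgcgtagttcaaa
A match is a string of letters and not a site shown to be used. No rule fixed in advance picked these 5. The values of these genes are given with the other reported targets.

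Levels below are log2 intensities relative to the upper quartile (75th percentile) of the same array, so a level of 0 lies at that quartile and a difference of 1 is a doubling. On the 4 arrays the upper quartile lay between 270.8 and 490.3 intensity units. Between 56.8% and 63.0% of probes were well above background by the scanner software's own test. The macrophage markers were bright on all 4 arrays: Lyz2, a lysozyme of myeloid cells, had levels of 10.42 and 9.06 in WT and 10.36 and 9.40 in KO, and Adgre1, which encodes F4/80, had 8.71 and 8.39 in WT and 8.75 and 8.78 in KO. Over the 10 macrophage markers the median difference between genotypes was 0.08, and Mertk, a receptor for apoptotic cells, was at -0.27 ± 0.31.

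Each replicate number was scanned in its own session, and the 2 genotypes at 6 h shared no slide: KO arrays lay on slides 1 and 4, and WT arrays on slides 2 and 3. At 12 h the places were exchanged, with WT on slides 1 and 4 and KO on slides 2 and 3. No comparison of genotypes within a slide could therefore be made at 6 h. Slide and genotype cannot be told apart within the 4 arrays, and values with slide as a term borrow the slide differences from the other 12 arrays.

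At 6 h of LPS no gene passed the test between genotypes on all 17659 genes (limma, adjusted p threshold 0.05; percent called 0, smallest adjusted p 0.52). At an unadjusted p below 0.05 there were 145 genes (0.821%), 24 higher and 121 lower in KO. That count was 241 without KO replicate 1 and 225 without WT replicate 2, with 32 and 37 higher in KO. Without KO replicate 2, the array with the fewest probes above background, it was 204 with 87 higher, and without WT replicate 1 it was 124 with 38 higher. With the replicate number as a block, 2 genes passed (percent called 0.0113): Rptoros was higher and Noxa1 was lower in KO, and 600 genes (3.4%) had an unadjusted p below 0.05. A p above the threshold does not show that a gene was equal in the 2 genotypes. The split also moved with scaling: of 268 genes at that p after quantile normalization 102 were higher, and of 147 after median scaling 42 were higher. Median scaling also moved the median difference over all genes from -0.02 to 0.11.

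The genotype difference was also taken within each replicate pair. KO minus WT in replicate 1 and in replicate 2 correlated at r = 0.02 across the 17659 genes, which are not independent replicates. The sign was the same in both pairs for 8249 genes (46.7%), 19.7% higher and 27% lower in KO. Both KO arrays lay above both WT arrays for 816 genes (4.62%) and below them for 1491 genes (8.44%). With the brighter group well above background on both arrays as well, the shares were 4.29% and 7.1%. A difference beyond 1 in both pairs was seen for 38 genes upwards and 163 downwards.

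**Figure D1:**
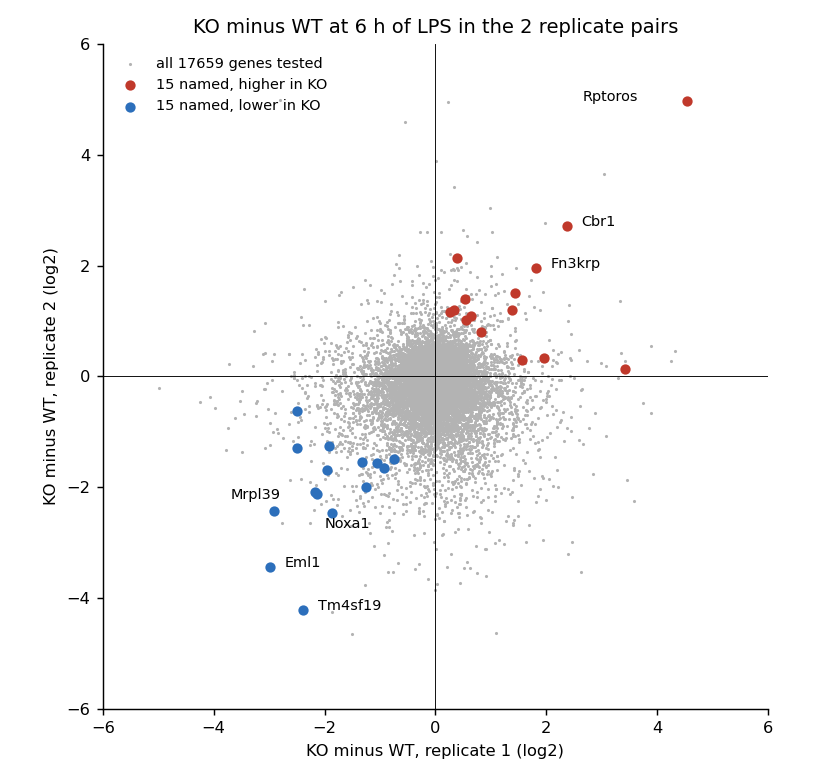
KO minus WT (log2) in replicate 1 (horizontal axis) and in replicate 2 (vertical axis) for the 17659 genes tested, in grey, with the 15 genes named as higher in KO in red and the 15 named as lower in blue; Noxa1 is labelled in grey. Most genes form a round cloud about 0, and Rptoros lies apart at the upper right, with 4.55 in replicate 1 and 4.97 in replicate 2.

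The genes highest in KO were led by 2 that differed at every time of the series. Rptoros is a long non-coding RNA whose gene lies within Rptor on chromosome 11; its probe maps to chr11:119682498-119682557 (mm9, minus strand). Its levels were -5.59 and -5.12 in WT and -1.05 and -0.15 in KO. Both KO arrays stood more than 4 log2 units above both WT arrays, and WT replicate 1 was not well above background. The difference was 4.76 ± 0.73 (SE, 2 arrays a group), with an adjusted p of 0.52 without and 0.0354 with the replicate block in limma. With slide as a fixed block the difference was 3.63 (adjusted p 0.79), and with normexp background correction, whose offset of 50 intensity units compresses dim signals, it was 1.93.

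Cbr1 encodes carbonyl reductase, an enzyme that reduces carbonyl compounds including quinones and prostaglandins. Its probe lies at chr16:93610497-93610556 (mm9, plus strand), on the chromosome that carries Mir155. Levels were -0.32 and -0.07 in WT and 2.05 and 2.64 in KO. Neither KO array came near the WT arrays. The difference was 2.54 ± 0.59, a 5.81-fold ratio, and did not pass (limma adjusted p 1.0, and 0.652 with the block).

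C2, a component of the classical complement pathway, had levels of -0.43 and -0.11 in WT and 0.39 and 0.70 in KO. Its difference of 0.81 ± 0.27 was met by a second probe of the gene at 0.76. Fn3krp, a kinase that acts on sugar adducts of proteins, was not well above background on either WT array (-6.04 and -5.52) and was so on both KO arrays (-4.22 and -3.56). It was at least 2.85-fold higher in KO. That bound takes as the WT level the lowest signal well above background on each array, or the probe's own signal where higher. Such bounds, here and below, are read from the main values and carry no error. Neither gene passed the test (limma adjusted p 1.0 for each).

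At the other 3 times these 4 genes stood the same way. KO minus WT for Rptoros was 4.65 at 0 h, 4.80 at 12 h and 3.95 at 24 h. The values for Cbr1 were 2.48, 2.87 and 2.85. C2 gave 1.12, 0.66 and 0.83, and Fn3krp gave 1.79, 2.49 and 2.17. The difference between 6 h and 0 h was small beside its error for Rptoros (0.11 ± 1.03) and Cbr1 (0.06 ± 0.84). At 0 h, before LPS, Rptoros passed with the block (limma adjusted p 0.0435).

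Mrpl39 led the genes lower in KO. It encodes a protein of the large subunit of the mitochondrial ribosome and is the next gene after Mir155 on chromosome 16 in the RefSeq gene order; the probe spans chr16:84718622-84724086 (mm9, minus strand). Levels were 2.54 and 1.84 in WT and 0.42 and -0.29 in KO. The 2 pairs gave -2.13 and -2.12, so the pairs differed by less than 0.01. The difference of -2.13 ± 0.32 had an adjusted p of 0.52 without and 0.0538 with the replicate block (limma), and was -1.94 with slide as a fixed block.

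Unlike the 4 genes above, Mrpl39 showed almost no genotype difference at rest. KO minus WT was -0.04 at 0 h, -3.77 at 12 h and -2.09 at 24 h, and at 12 h it passed (limma adjusted p 0.00402, and 0.000941 with the block). The change of the genotype difference from 0 h to 6 h was -2.09 ± 0.45 and did not pass (limma adjusted p 1.0, and 0.752 with the block). Over all genes 0 passed for that change with or without the block (percent called 0; 47 and 312 genes at an unadjusted p below 0.05).

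**Figure D2:**
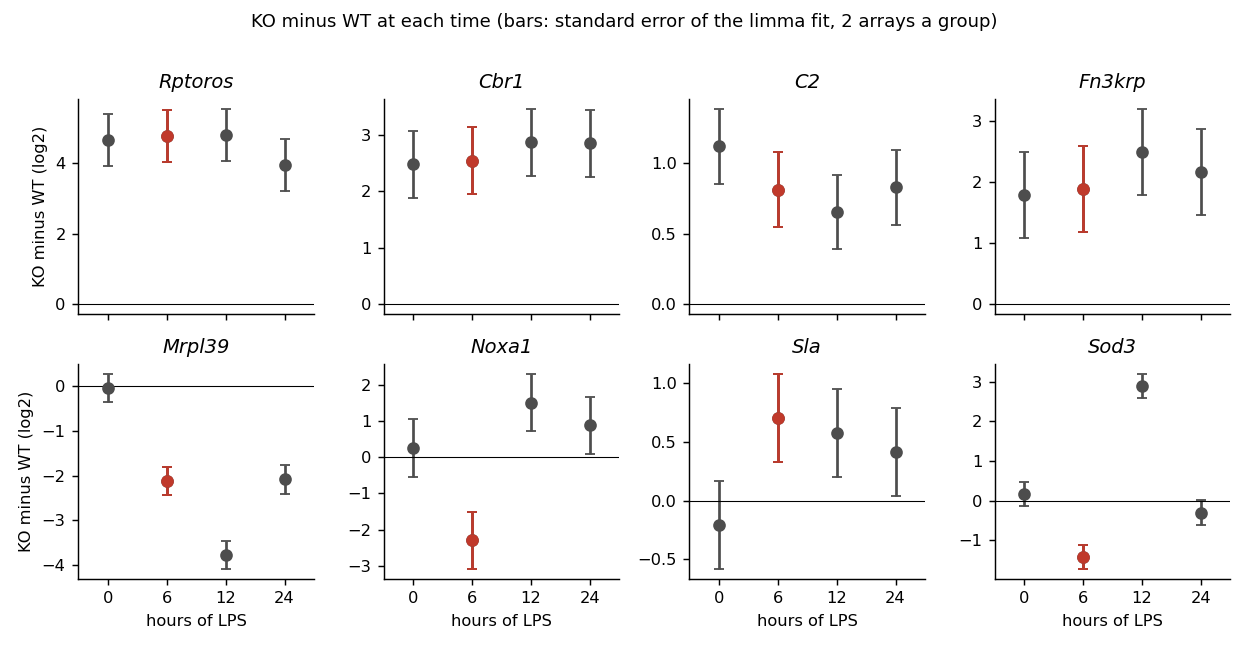
KO minus WT (log2, vertical axis) at 0, 6, 12 and 24 h of LPS (horizontal axis) for 8 genes, with 6 h in red; points are differences of means of 2 arrays and bars are standard errors of the limma fit. Rptoros, Cbr1, C2 and Fn3krp lie above 0 at all 4 times, Mrpl39 is at -0.04 at 0 h and below -2 afterwards, and Noxa1 and Sod3 lie below 0 at 6 h and above it at 12 h.

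The arrays of 0, 12 and 24 h can be fitted without any 6 h array. In that fit of the mean genotype difference Mrpl39 passed without the block (limma adjusted p 0.0109) and Rptoros and Mrpl39 passed with it (0.00721 and 0.00494). Of the 210 genes at an unadjusted p below 0.05 there, 65 (31.0%) had all KO arrays at 6 h on the same side of both WT arrays as at the other times, and 17 (8.10%) had them on the opposite side. Over all genes tested those shares were 7.96% and 5.11%. Replicate sessions and slides are shared between these times, and the part of that sharing in the agreement was not tested.

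The other 11 genes named as higher in KO were dim, with levels below -2 on all 4 arrays, apart from Kdm6b and Sla. Adam19, a membrane metalloprotease, had levels of -4.20 and -4.68 in WT and -2.75 and -3.18 in KO, and at the other times KO minus WT was 0.58, 1.63 and 1.65. Of its 2 further probes one gave 1.54 and the other -0.38. Adamts1, a secreted metalloprotease encoded on chromosome 16, had -4.43 and -3.98 in WT and -3.05 and -2.78 in KO. Its difference of 1.29 ± 0.62 stood beside 1.99 at 0 h and 0.34 for a second probe.

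Kdm6b, a histone H3 lysine demethylase induced by LPS, had levels of 0.40 and -0.67 in WT and 1.05 and 0.41 in KO. The difference was 0.87 ± 0.45, and KO replicate 2 was above WT replicate 1 by less than 0.01. Bcar1, an adaptor of adhesion signalling, differed by 0.79 ± 0.38. The kinase gene Rps6ka5 (MSK1) differed by 0.96 ± 0.51, the tetraspanin gene Tspan6 by 1.26 ± 0.66 and Sdsl, a serine dehydratase-like enzyme, by 0.93 ± 0.48. Neurl1b, a ubiquitin ligase, was not well above background in WT and was at least 1.44-fold higher in KO. Tbl2 (1.15 ± 0.45) and the olfactory receptor gene Olfr1406 (1.78 ± 0.88) were high mainly on KO replicate 1, and 2 further probes of Tbl2 gave -1.43 and -0.12. None of these passed (limma adjusted p 1.0 for each, with the block as well).

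**Figure D3:**
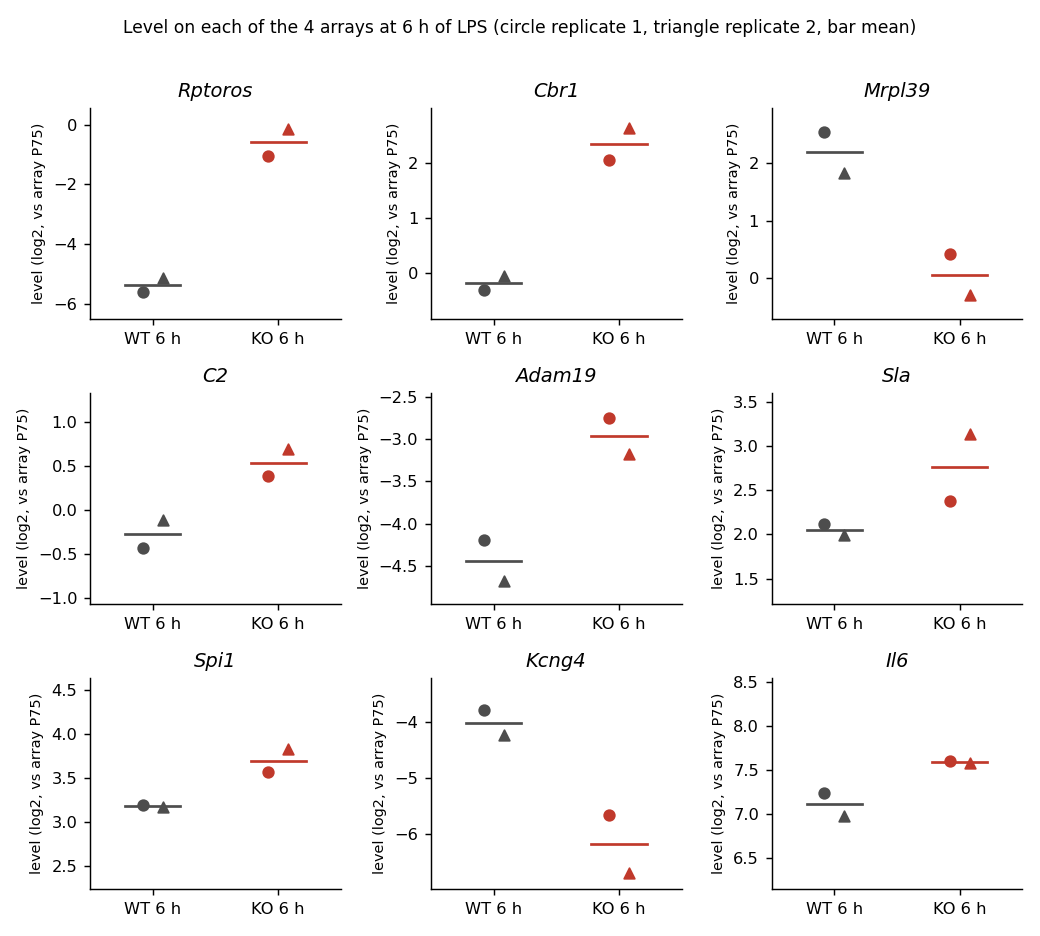
Level (log2 relative to the array's upper quartile, vertical axis, own scale for each gene) on the 2 WT arrays (grey) and 2 KO arrays (red) at 6 h of LPS for 9 genes; circles are replicate 1, triangles replicate 2 and bars the group mean. In all 9 panels the KO arrays lie on one side of the WT arrays, with the widest separation for Rptoros, from -5.12 in the higher WT array to -1.05 in the lower KO array.

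The genes lower in KO, apart from Mrpl39, were mostly at the floor of the array in KO. Of the 15 named, 11 were not well above background on either KO array and 3 were so on all 4 arrays. Kcng4, a modifier subunit of voltage-gated potassium channels, had -3.80 and -4.23 in WT and -5.66 and -6.70 in KO, at least 3.25-fold lower in KO. Prss58, a serine protease, was at least 3.35-fold lower and Tm4sf19, a tetraspan membrane protein, at least 3.18-fold lower. The bounds were 1.53-fold for the DNA repair glycosylase Mutyh, 1.72-fold for the transcription factor Ptf1a, 1.81-fold for the transglutaminase Tgm1, 1.89-fold for Pkhd1l1 and 2.04-fold for the microtubule-binding protein Eml1. They were 2.34-fold for Fbxw27, 2.48-fold for the annexin Anxa13 and 2.86-fold for Fam78b. The 2 other probes of Mutyh gave -1.90 and -0.04. With normexp background correction the differences of the dim genes were far smaller, while Mrpl39 kept -1.98: the median of the 15 was -0.17, beside -1.82 in the main values, and Kcng4 gave -0.25, Eml1 -0.13, Tm4sf19 -0.39 and Mutyh -0.0073. For the 15 named as higher the medians were 0.38 and 1.15.

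The other 3 lower genes had a level in both genotypes or in part of the KO arrays. Erv3, an endogenous retroviral sequence, had -1.49 and -2.46 in WT and -3.98 and -3.09 in KO, a difference of -1.56 ± 0.41. Crybb3, a crystallin, had -3.83 and -3.18 in WT and -5.08 and -5.18 in KO. Mtus2, a microtubule-associated protein, had -4.13 and -3.72 in WT and -4.87 and -5.21 in KO, with 1 KO array well above background. Its difference of -1.12 ± 0.24 was accompanied by -0.65 and -0.85 from 2 further probes and by -0.64, -0.70 and -0.57 at the other times.

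Noxa1, an activator subunit of NADPH oxidase, passed only with the replicate block (limma adjusted p 0.0389). Levels were -4.08 and -4.94 in WT and -6.27 and -7.35 in KO, where neither array was well above background, so it was at least 2.43-fold lower in KO. With normexp background correction its difference of -2.30 became -0.10. The difference was 0.26 at 0 h, 1.52 at 12 h and 0.89 at 24 h, and the change from 0 h to 6 h did not pass with the block (limma adjusted p 0.218). Noxa1 fell outside the 15 ranked by the fit without the block.

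These genes were also read at 12 h, where the slides of the genotypes are exchanged. Of the 15 genes named as lower in KO, 11 had the opposite sign at 12 h, and the median difference was -1.82 at 6 h and 0.40 at 12 h. Of the 15 named as higher, 3 had the opposite sign at 12 h, with medians of 1.15 and 0.58. The opposite sign at 12 h was also seen for 8605 of all 17659 genes tested. In the dimmest of 4 equal bins of genes by mean level it was seen for 2547 of 4415. With slide as a fixed block the medians at 6 h were -1.56 for the 15 lower genes and 1.06 for the 15 higher.

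The same leaning ran through the dim genes as a class. In the dimmest of 4 equal bins of genes by mean level over the 16 arrays, both KO arrays lay below both WT arrays for 16.3% and above for 3.56%, against 3.69% and 5.28% in the brightest bin. The dimmest bin also held 109 of the 145 genes at an unadjusted p below 0.05. Its median difference was -0.22 at 6 h, 0.13 at 12 h, -0.06 at 0 h and -0.02 at 24 h, and it was -0.20 at 6 h with slide as a fixed block. KO replicate 2 also had the lowest share of probes well above background of the 4 arrays (56.8%, against 61.7% to 63.0%). The part of array brightness in the count of lower genes was not tested beyond these values.

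**Figure D4:**
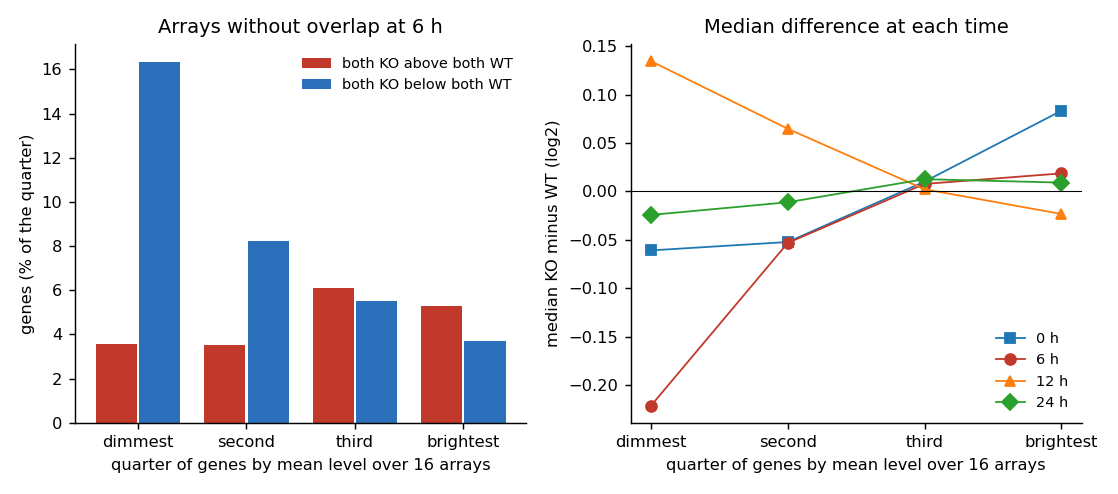
Left, share of genes (% of each bin) with both KO arrays above (red) or below (blue) both WT arrays at 6 h; right, median KO minus WT (log2) at each time; genes are in 4 equal bins by mean level over the 16 arrays on both horizontal axes. In the dimmest bin 16.3% of genes lie below against 3.56% above, and the median there is -0.22 at 6 h and 0.13 at 12 h.

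Among reported targets of miR-155, messenger RNAs listed from general knowledge of the field, 58 of 60 were measured and 0 passed with or without the block. Their median difference was 0.14, beside -0.02 over all genes tested. Both KO arrays lay above both WT arrays for 11 (19%, beside 4.62% of all genes) and below for 3 (5.17%, beside 8.44%). Of the 58 differences 36 were above 0, beside 8021 of 17659 over all genes tested. The median of the targets was -0.01 in replicate 1 and 0.19 in replicate 2, so the 2 pairs did not give the same shift. In the brightest of 4 equal bins of genes by mean level it was -0.09 and 0.13, and the part of brightness in the list values was not tested. These counts describe the list and were not tested.

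Sla, an adaptor that dampens receptor signalling, had the smallest unadjusted p among the targets. Its levels were 2.12 and 1.99 in WT and 2.38 and 3.14 in KO, a difference of 0.71 ± 0.37, and a second probe gave 0.55. It was 0.13 with slide as a fixed block, and at 0 h it was -0.21. Spi1, the macrophage transcription factor PU.1, had 3.20 and 3.17 in WT and 3.57 and 3.83 in KO, a difference of 0.51 ± 0.36 that became -0.14 with slide as a fixed block. Inpp5d had 1.40 and 1.39 in WT and 1.85 and 1.55 in KO, a difference of 0.31 ± 0.37. In all 3 genes the KO arrays lay above the WT arrays, by less than the error allows to be called (limma adjusted p 1.0 for each).

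Other targets without overlap between the groups, chosen for mention after their values were seen, were Smad5 (0.68 ± 0.56), a mediator of BMP signalling, the adhesion molecule Vcam1 (0.39 ± 0.35) and Picalm (0.39 ± 0.45), which acts in endocytosis. Below the WT arrays lay Wee1 (-0.52 ± 0.46), a kinase that holds cells before mitosis, and Meis1 (-1.18 ± 1.08), not well above background in KO. Socs1 was also on that side: levels were 5.78 and 5.59 in WT and 5.44 and 5.54 in KO, a difference of -0.19 ± 0.28. Jarid2, a Polycomb cofactor, had 2.21 and 2.19 in WT and 2.14 and 2.92 in KO, so its difference of 0.33 ± 0.41 came from KO replicate 2.

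Bach1, a repressor of haem oxygenase, had 4.03 and 1.40 in WT and 3.44 and 1.34 in KO. The session moved it by more than 2 log2 units in both genotypes, and the difference was -0.33 ± 1.56, or ± 0.33 with the replicate block. Tab2, an adaptor between TLR signals and the kinase TAK1, differed by 0.16 ± 0.26, and by -0.13 with slide as a fixed block. Csf1r, the M-CSF receptor, differed by 0.26 ± 0.67. None of the 17 genes fixed for mention passed (limma adjusted p 1.0 for each, block included).

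Genes whose own probe held a seed match gave values close to those of all genes. The 68 genes had a median difference of -0.01, 4 with both KO arrays above (5.88%, beside 4.62%) and 8 below (11.8%, beside 8.44%), and 0 passed. Their differences ran from -1.46 for Itln1 and -1.30 for Klra9 up to 0.41 for Cebpb. For the 29 genes with the 8-letter match the median was 0.03, and for the 39 with 7 letters only it was -0.02. In 38 other genes whose probes held GCATTAA without the preceding base the median was -0.07.

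Cebpb, a transcription factor of inflammatory gene expression whose probe holds AGCATTAA (chr2:167515847-167515905, mm9, plus strand), had the highest difference among the 8-letter genes. Its levels were 6.11 and 5.30 in WT and 6.66 and 5.57 in KO, higher in KO within each session (0.56 and 0.27) although the groups overlapped, and the difference was 0.41 ± 0.53, or ± 0.23 with the block. A second probe gave 0.61. For Foxn2, a forkhead factor, the KO arrays lay above the WT arrays by 0.39 ± 0.55, and for Wdr41 by 0.28 ± 0.26. For Map3k14, the NF-kB inducing kinase NIK, the KO arrays lay below, with a difference of -0.24 ± 0.31, and for Tnip3, a feedback inhibitor of NF-kB, the difference was -0.06 ± 0.42.

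The 24 gene lists gave no called gene in either direction. They covered pathways of the LPS response, other pathways, markers of cell types, reported targets and genes around Mir155. They named 647 members, of which 599 were tested, and 0 passed with or without the block. Among 30 inflammatory cytokines the median difference was 0.12, with 2 KO above (6.67%, beside 4.62% of all genes) and 0 below (beside 8.44%). Il6 had 7.25 and 6.98 in WT and 7.60 and 7.59 in KO, a difference of 0.48 ± 0.83. Tnf had 7.96 and 7.48 in WT and 8.16 and 8.06 in KO, a difference of 0.40 ± 1.5. For both cytokines the KO arrays were higher, by less than the error of the fit.

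Il1b differed by 0.48 ± 0.92, the IL-12 and IL-23 subunit Il12b by 0.60 ± 0.65 and the IL-23 subunit Il23a by 0.64 ± 0.52, with overlapping arrays in each. Il12b gave -0.42 once slide was a fixed block. Il10, the anti-inflammatory cytokine, had 1.52 and 3.44 in WT and 1.6 and 3.52 in KO, so the sessions differed more than the genotypes (0.08 ± 1.94). Ifnb1 had 3.30 and 3.29 in WT and 3.09 and 3.55 in KO (0.03 ± 0.52, and -1.27 with slide as a fixed block).

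For 21 chemokines the median was -0.02, with 2 KO above (9.52%, beside 4.62% of all genes) and 2 below (9.52%, beside 8.44%). Ccl17 (-0.55 ± 0.37) and Ccl24 (-0.51 ± 0.37), ligands of CCR4 and CCR3 linked to type 2 responses, were lower on both KO arrays. For Ccl24 the pairs gave -0.97 in replicate 1 and -0.05 in replicate 2. Cxcl3 and Cxcl1, neutrophil attractants named here after their values were seen, were higher: Cxcl3 had 0.31 and 0.88 in WT and 2.10 and 2.13 in KO, and Cxcl1 had 0.98 and 0.38 in WT and 2.18 and 1.38 in KO. The errors were 1.82 for Cxcl3 and 2.40 for Cxcl1, wider than the differences of 1.52 and 1.1. These errors come from the spread within all 8 groups of the series, not from the arrays at 6 h alone. With the slide block the values were 5.26 for Cxcl3 and 5.51 for Cxcl1.

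Interferon-stimulated genes, 60 of them measured, had a median of 0.01. Both KO arrays lay above for 5 (8.33%, beside 4.62% of all genes) and below for 2 (3.33%, beside 8.44%). Xaf1, an interferon-induced apoptosis factor, had 5.77 and 5.64 in WT and 4.10 and 5.69 in KO, so KO replicate 1 alone was low. In 36 genes of TLR and interferon signalling the median was 0.11, and the smallest unadjusted p belonged to Traf3 (0.32 ± 0.24), an adaptor towards interferon induction, and Tlr1 (0.25 ± 0.24), a receptor for bacterial lipoproteins. Among 40 NF-kB subunits and feedback regulators it was 0.09, with Socs2, a cytokine signalling inhibitor, at -0.47 ± 0.56 and Ikbkg (NEMO), the regulatory subunit of the IKK complex, at 0.42 ± 0.35.

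In 36 antimicrobial and metabolic effectors of activated macrophages the median was 0.14, and it was 0.01 in replicate 1 and 0.25 in replicate 2. Both KO arrays lay above for 5 (13.9%, beside 4.62% of all genes) and below for 1 (2.78%, beside 8.44%). Ptges, the prostaglandin E synthase, had 3.35 and 3.06 in WT and 3.42 and 4.17 in KO (0.59 ± 0.59), and Ass1, which regenerates arginine, had 2.54 and 2.27 in WT and 2.88 and 2.89 in KO (0.48 ± 0.52). Arg2, the mitochondrial arginase, had -2.88 and -4.07 in WT and -2.06 and -2.73 in KO, a difference of 1.08 ± 1.47 that became -1.98 with slide as a fixed block. Nos2 (0.13 ± 0.81) and Arg1 (0.41 ± 1.81) overlapped between groups. Under the slide block Ptges gave -0.13, Ass1 -0.18, Nos2 -1.33 and Arg1 -0.18.

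Antigen presentation genes included 5 of 26 with KO above (19.2%, beside 4.62% of all genes) and 1 below (3.85%, beside 8.44%). Their median was 0.14, with -0.0011 in replicate 1 and 0.26 in replicate 2. Tap2, a peptide transporter for MHC class I, had 3.74 and 3.79 in WT and 4.42 and 4.12 in KO (0.51 ± 0.36). The other 4 were the MHC class II genes H2-Aa (0.82 ± 1.23), H2-Ab1 (0.50 ± 1.15) and H2-Eb1 (0.51 ± 1.08) and their chaperone Cd74 (0.53 ± 0.97), named after their values were seen. Under the slide block all 5 turned below 0, to -0.12 for Tap2 and to between -1.32 and -0.96 for the class II genes and Cd74. Pdcd1lg2 (PD-L2), a ligand of PD-1, was lower on both KO arrays (-0.54 ± 0.48).

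Metabolic and stress lists had medians between 0.01 and 0.17. Over all genes tested 8021 of 17659 differences were above 0. The median was 0.14 for 30 genes of glycolysis and hypoxia, 26 of them above 0, with Eno1 at 0.37 ± 0.28 and Adm at 0.51 ± 0.51. It was 0.09 for 29 genes of cholesterol synthesis and efflux (Srebf2 0.25 ± 0.31, Nr1h2 0.23 ± 0.30), 0.02 for 24 genes of ATF4 and the unfolded protein response (Sesn2 0.30 ± 0.39, Mthfd2 -0.45 ± 0.44) and 0.01 for 31 apoptosis genes (Bax 0.28 ± 0.27, Ripk3 -0.30 ± 0.41). Of 24 oxidative stress genes, with a median of 0.17 and 20 of them above 0, Cbr1 is described above. Sod3, the extracellular superoxide dismutase, had -6.25 and -6.61 in WT and -7.77 and -7.94 in KO, with no array at 6 h well above background.

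Cell cycle genes had a median of -0.08 over 53 genes. Both KO arrays lay above for 2 (3.77%, beside 4.62% of all genes) and below for 5 (9.43%, beside 8.44%). Ccne2 (cyclin E2) had -4.21 and -4.59 in WT and -6.30 and -5.13 in KO, and Kif2c, a mitotic kinesin, had -5.09 and -5.27 in WT and -6.01 and -5.84 in KO. Both genes were not well above background in KO, and in the main values the bounds were 2.10-fold and 1.53-fold lower in KO. These sizes did not hold under the alternatives. With slide as a fixed block the differences were -0.47 for Ccne2 and -0.25 for Kif2c, beside -1.32 and -0.74 in the main values. A second probe of Ccne2 gave -0.71, and Kif2c gave 0.0089 with normexp background correction.

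**Figure D5:**
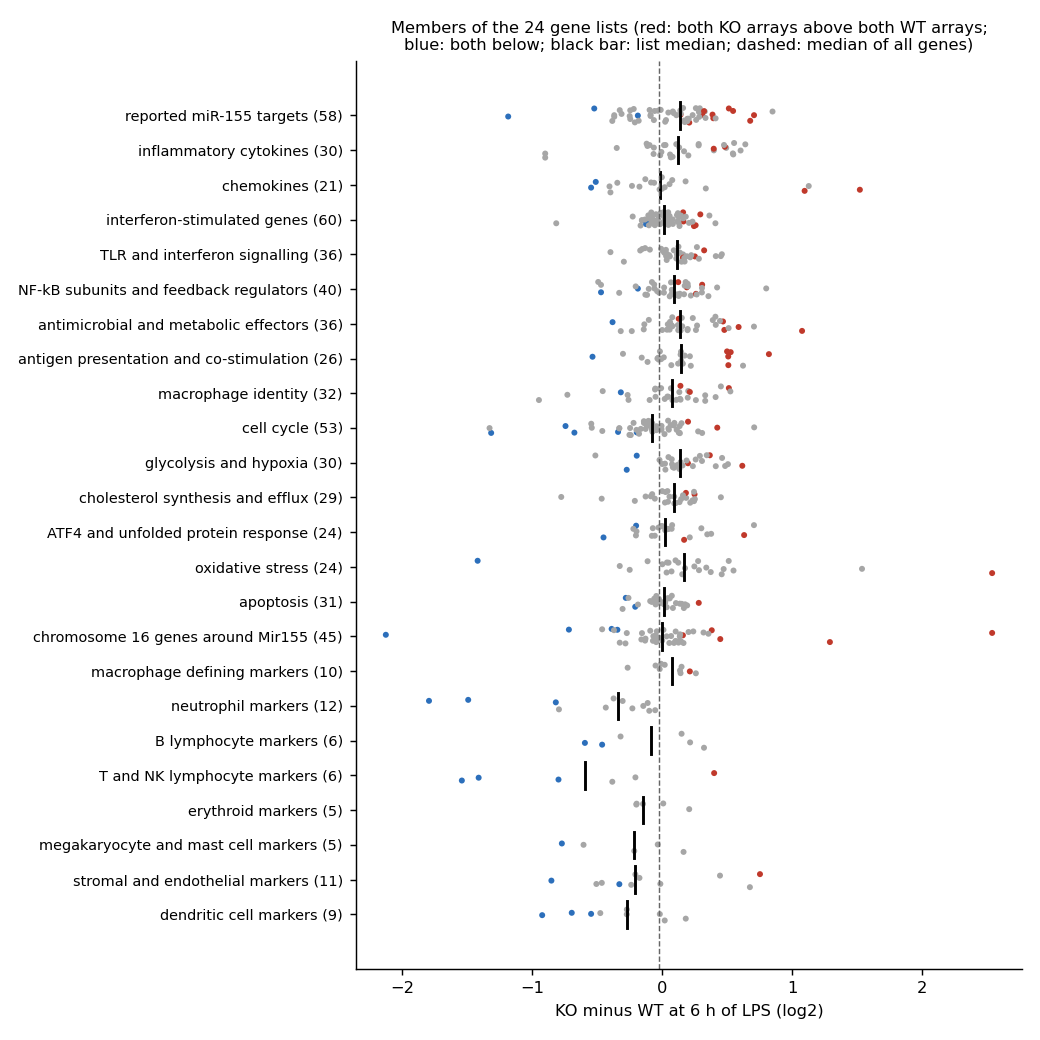
KO minus WT at 6 h of LPS (log2, horizontal axis) for the measured members of the 24 gene lists (rows, number measured in brackets); red points have both KO arrays above both WT arrays, blue points both below, grey points overlap, black bars are list medians and the dashed line is the median of all genes. The medians of the LPS response lists lie between -0.02 and 0.14, and single genes such as Cbr1 (2.54) and Mrpl39 (-2.13) lie far outside their lists.

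Around Mir155 on chromosome 16, 45 of 53 listed genes were measured, with a median of 0.00, 5 KO above (11.1%, beside 4.62% of all genes) and 4 below (8.89%, beside 8.44%). Beside Mrpl39, Cbr1 and Adamts1 these included Cryzl1 (0.45 ± 0.25), Chaf1b (-0.72 ± 0.42), a subunit of the chromatin assembly factor, and the ubiquitin protease Usp25 (-0.39 ± 0.39), named after their values were seen. Chaf1b had -0.15 and -0.06 in WT and -0.88 and -0.76 in KO, and differed by -0.19 at 0 h, -1.54 at 12 h and -1.74 at 24 h. On the whole chromosome 10 of 454 genes tested (2.20%) had an unadjusted p below 0.05, beside 0.821% of all genes tested, and 0 passed.

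Genes that LPS moved late in both genotypes were chosen on 0, 12 and 24 h alone, by a change of at least 2 on the log2 scale. The 924 raised genes had a median difference of 0.02 at 6 h, with 6.17% of them KO above and 6.28% below, and 0 passed. The 1007 lowered genes had a median of -0.14, with 2.88% above and 13.7% below, and 0 passed. Over all genes tested the shares were 4.62% above and 8.44% below. Restricted to genes well above background on all 4 arrays, the lowered class still had a median of -0.12 with 2.41% above and 10.9% below, beside 4.78% and 6.59% of all such genes.

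Markers of other cells were read in the same way. The neutrophil list, 12 of 15 measured, had a median of -0.34, which was -0.11 with normexp background correction and local background capped. In the main values of this list 0 of 12 were above 0, beside 8021 of 17659 genes tested, and 3 were KO below (25%, beside 8.44% of all genes). Its summed level was 5.60 and 2.05 in WT and 4.80 and 2.14 in KO, so the session separated it more than the genotype. Prtn3 (-0.82 ± 0.39) and Retnlg (-1.79 ± 1.46) were the members of this list with the smallest unadjusted p. Prtn3 was well above background on 1 WT and 1 KO array, and its pairs gave -0.13 and -1.50. For Retnlg no 6 h array was well above background. Dendritic cell markers, 9 of 12 measured, had a median of -0.27 with 3 KO below (33.3%, beside 8.44%): Batf3, a transcription factor of these cells, had 0.81 and 0.63 in WT and -0.10 and 0.16 in KO (-0.70 ± 0.33), and Zbtb46, named after its values were seen, differed by -0.92 ± 1.14. Ccl17, given above with the chemokines, is also on this list and lay below on both KO arrays. The summed level of the dendritic cell list was 5.06 and 4.41 in WT and 4.56 and 4.59 in KO.

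T and NK cell markers, 6 of 11 measured, had a median of -0.59, the lowest of the 24 lists in the main values. In those values 1 of 6 was above 0 and 3 were KO below (50%, beside 8.44%). The median was -0.50 after quantile normalization and -0.45 after median scaling. With normexp background correction and local background capped it was -0.065, and the dendritic cell list was lowest at -0.31. The summed level of the T and NK markers was 2.42 and 2.04 in WT and 2.08 and 1.22 in KO, with Cd3g not well above background in KO. Most of that sum was Lck (-0.80 ± 0.40), with levels of 2.12 and 1.76 in WT and 1.6 and 0.68 in KO. Over the 16 arrays Lck had a mean level of -2.42, far below its levels at 6 h. The sum therefore follows 1 gene that changed within the series, and whether its signal came from lymphocytes was not tested. The medians were -0.09 for 6 B cell markers (Blnk, which macrophages also express, at levels of 7.49 and 7.12 in WT and 7.39 and 7.65 in KO), -0.15 for 5 erythroid markers (Tfrc 0.21 ± 0.41, Hba-a1 -0.15 ± 0.47), -0.21 for 5 megakaryocyte and mast cell markers (Gp1bb -0.77 ± 0.45, Ppbp -0.60 ± 0.75) and -0.21 for 11 stromal and endothelial markers (Cdh5 0.75 ± 0.50, Postn -0.85 ± 0.74). In the list of 32 macrophage identity genes the median was 0.07, with Clec10a, a lectin of alternatively activated macrophages, at -0.95 ± 1.09. In bulk samples fewer cells of a type and less RNA per cell cannot be told apart, and the part of these cells in the differences above was not tested.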

How the data were processed

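Per the labels' protocols, total RNA was labelled with Cy3 and hybridised to single-colour Agilent arrays. Per the file headers, the deposited intensity of each spot is the processed signal of Agilent Feature Extraction 10.5.1.1, background-subtracted and detrended. The authors also deposited a series table of log2 values with an upper quartile of 8.78 to 8.79 on every array, used as an alternative (r = 1 with the scanner log2 values).

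Outlier and control spots were removed, log2 intensities averaged per probe, and each array's 75th percentile subtracted. A value on every array was left for 41077 probes, and 26855 of them were well above background on both arrays of at least 1 group. Each of the 17659 genes was represented by its brightest such probe on average. Names came from RefSeq by accession for 26964 probes, by symbol for 5495 and by synonym for 873, and 7745 kept the array's name. Probe coordinates are the array file's (mm9).

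The 16 arrays were fitted as 8 group means (limma 3.58.1, R 4.3.3), with 8 residual degrees of freedom, Benjamini-Hochberg adjustment over all genes and a threshold of 0.05. The scripts were tested on simulated data. Arrays of one number deviated from their groups together (correlations of 0.40 to 0.84 over 28 group pairs), and the file headers place each number in its own scan session, so the numbers pair the samples. Values after ± are standard errors without the block unless stated. Named genes were well above background in the brighter group, with the same sign in both pairs and no overlap between groups: the 15 each way with the smallest unadjusted p, none past the threshold without the block. From each list the 2 genes with the smallest p and 17 fixed genes were added. The members and lists were chosen with earlier results of these data known. Alternatives were the replicate and slide blocks, the 4 arrays alone, normexp background, quantile and median scaling, no filter, the mean of probes, the deposited table and leaving out each array. Some genes the rule selects are not reported here.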

Additional observations from a re-analysis of the deposited data

Results flagged for a closer look

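Sod3 passed a test of the change in the genotype difference between 6 h and 12 h, but its signals at 6 h were at background. KO minus WT was -1.42 ± 0.31 at 6 h and 2.89 at 12 h, a change of -4.31 (limma adjusted p 0.0241), and it was 0.16 at 0 h and -0.30 at 24 h. No array at 6 h was well above background, so Sod3 was among the genes tested only through another group, its values at 6 h are differences between background signals, and no size can be read from the change. Also, the slides of the 2 genotypes are exchanged between 6 h and 12 h. With slide as a fixed block 0 genes passed for this change, with a smallest adjusted p of 0.663, and with the replicate block 3 passed. The contrast with 12 h was added after seeing the data.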

How the results depend on the processing

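The count of genes passing at 6 h was 0 under 15 of the 16 alternatives and 2 with the replicate block, which pairs the arrays; without single arrays it ranged from 0 to 0. Genes at an unadjusted p below 0.05 numbered 145, and 600 with the replicate block, 1059 and 411 with slide as a fixed or random block, 974 on the 4 arrays alone with the block, 268 after quantile normalization, 5 and 24 with the planned and capped normexp, and 503 of 27587 without the filter. Counts for the change from 0 h to 6 h and for the lists were 0 under each alternative run for them, the block included. The capped normexp correction was chosen after seeing the data, since the planned normexp was upset by a few spots on 2 arrays of 12 h. Of 106 genes named, 73 kept their sign, though not their size, under all 16 alternatives, and the cause of the other reversals was not tested. With slide as a fixed block the differences were -0.18 for Arg1, -1.98 for Arg2, -0.18 for Ass1, 0.089 for Hba-a1, -1.27 for Ifnb1, -0.42 for Il12b, 0.27 for Mthfd2, -1.33 for Nos2, 0.049 for Ppbp, -0.13 for Ptges, -0.084 for Sesn2, -0.14 for Spi1, -0.13 for Tab2, -0.12 for Tap2, -1.32 for H2-Aa, -1.20 for Cd74, -1.26 for H2-Ab1, -0.96 for H2-Eb1 and -0.039 for Lyz2. As a random block, slide gave -0.75 for Arg2, -0.74 for Ifnb1, -0.00851 for Il12b, -0.74 for Nos2, -0.011 for Tab2, -0.45 for H2-Aa, -0.50 for Cd74, -0.55 for H2-Ab1 and -0.37 for H2-Eb1. The planned normexp gave 0.0089 for Kif2c, 0.043 for Ppbp, 0.043 for Retnlg, 0.0016 for Sod3 and 0.0034 for Meis1, and the capped one 0.016 for Ppbp and 0.017 for Retnlg. Tbl2 was -0.13 as the mean of its probes, Ifnb1 -0.0026 after quantile normalization and Tnip3 0.075 after median scaling. Leaving out single arrays gave -0.62 to 1.44 for Arg1, -1.64 to 0.99 for Bach1, -0.14 to 0.96 for Cebpb, -0.11 to 0.63 for Csf1r, -0.42 to 0.13 for Hba-a1, -0.20 to 0.26 for Ifnb1, -0.018 to 0.86 for Ikbkg, -0.88 to 1.04 for Il10, -0.087 to 1.04 for Il1b, -0.054 to 0.72 for Jarid2, -0.54 to 0.82 for Lyz2, -0.33 to 0.59 for Nos2, -1.27 to 0.061 for Ppbp, -0.19 to 0.79 for Sesn2, -0.047 to 0.37 for Tab2, -0.14 to 0.55 for Tfrc and -0.24 to 0.12 for Tnip3. Precision is limited by 2 arrays a group and, for dim probes, by background.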
